A study of Mus musculus with 6 samples.

Results

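Genes for enzymes that modify histones or DNA, and for proteins that move nucleosomes, were compared between spleen γδ T cells positive and negative for Eomes, a T-box transcription factor. The genes were taken by name, as the Hdac, Sirt, Dnmt, Tet, Kdm, Jmjd, Jarid, Setd, Ezh, Suv, Chd and Smarc families in the scanner files. No measured value entered that rule, but earlier results of these data were known when it was chosen. They comprised 89 of the 30341 gene names on the array and 145 of its 39429 probes. The probe with the highest mean signal stood for each gene. Of the 89, 84 had a signal above background on at least 3 of the 6 arrays and were tested. Chd5, Hdac11, Kdm5d and Smarca1 were not well above background on any array, and Smarcd3 was so on 1 Eomes-positive array.

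Both groups came from mice carrying the Eomes-IRES-GFP allele (Eomestm1.1Twa) on a C57BL6 background, in which green fluorescent protein (GFP) reports transcription of Eomes. Eomes-positive cells were sorted as GFP-positive and Eomes-negative cells as GFP-negative, in each case from CD3-positive, TCRγδ-positive and TCRβ-negative spleen cells that had first been depleted of B220-, CD4- and CD8β-bearing cells. The labels name no treatment. There were 3 independent sorts, each pooling the spleens of 4 to 6 mice and each giving 1 array per group, so n = 3 throughout. The mice were 9, 9.5 and 7.5 weeks old in sorts 1, 2 and 3.

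Each level is a log2 signal from which the 75th percentile of its array was subtracted, so that 0 marks a signal at that percentile, and levels are not compared between probes. Differences are Eomes-positive minus Eomes-negative on that log2 scale, where 1 is 2-fold. Raw 75th percentiles were 1580.7 to 1684.0 intensity units in sorts 1 and 2, which used 9 ng of RNA, and 534.1 and 549.5 in sort 3, which used 4 ng, and precision is limited throughout by having 3 arrays per group. Eomes itself had levels of 5.31, 4.96 and 4.48 in Eomes-positive cells, against 0.72, 0.88 and -1.14 in Eomes-negative cells of sorts 1, 2 and 3 (difference 4.76, SE 0.588, limma adjusted p = 0.0178). Cd3e, which encodes a chain of the T cell receptor complex, had a level of 5.72 ± 0.29 in Eomes-positive and 5.79 ± 0.25 in Eomes-negative cells (SD, n = 3 each). It was 1 of 8 tested genes on a list for γδ T cells, of which only Tcrg-V1 and Tcrg-V6 are not shared with αβ T cells. Of the 8, the variable segment Tcrg-V6 fell by 4.02 (adjusted p = 0.0117) and, with the sort as a block only, Thy1 fell by 0.95 (adjusted p = 0.0294). The list's median difference was -0.07. Of 8 listed killer-cell genes, 4 (Klrb1c, Klre1, Klri2 and Styk1) rose in Eomes-positive cells, against 1.2% of all genes. With the sort as a block only, Klra4 rose by 0.97 (adjusted p = 0.0344). Klra1 went the other way, by -0.75 (adjusted p = 0.43 on group alone). The list's summed level (log2 of its summed signals) was 5.68 to 5.76 in Eomes-positive cells, against 3.03 to 3.98 in Eomes-negative cells. Ncr1, a marker of natural killer cells on that list, was above background on all 6 arrays and differed by 1.70 (adjusted p = 0.184). Of 4 tested αβ T cell genes, Cd8b1 fell by 2.86 and, with the sort as a block only, Foxp3 fell by 1.09, and the summed level was 1.60 to 1.75 in Eomes-positive and 3.06 to 3.49 in Eomes-negative cells, while Cd40lg was not well above background on any array. Of 6 tested B cell genes, 0 passed on group alone and in the block fit Cd79b fell by 0.92 (adjusted p = 0.0217). Their summed levels were 3.25 to 4.25 in Eomes-positive and 3.99 to 4.58 in Eomes-negative cells, and summed myeloid levels spread over 3.97 to 8.12 in Eomes-positive and 4.40 to 8.12 in Eomes-negative samples, and erythroid and platelet levels over 4.76 to 8.24 and 4.70 to 7.96, with no call in either list by either fit. The part of these cells in the results below was not tested, and in sorted bulk samples a change in the share of cells that express a gene and a change in RNA per cell cannot be told apart.

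DNA in the nucleus is wound around histones, and chemical marks on both set how easily a gene is read. Histone acetylation, which loosens chromatin, is removed by histone deacetylases (HDACs) and sirtuins. Methyl groups on histone lysines are written by SET domain enzymes and erased by Kdm demethylases, most of which belong to the JmjC oxygenases. Dnmt enzymes methylate cytosine in CpG dinucleotides, Tet enzymes oxidise that mark, and the CHD and SWI/SNF proteins use ATP to slide or evict nucleosomes. In T cells these enzymes are known for keeping lineage and cytokine genes open or closed as cells differentiate. The names also took in proteins outside the heading of modifying enzymes: Dnmt3l and Jarid2 lack catalytic activity of their own, Jmjd4, Jmjd6 and Jmjd7 are known chiefly as hydroxylases of other proteins, Setd3 methylates actin, and Smarca5-ps is a pseudogene whose sequence is close to that of Smarca5. Signals of that pair are therefore uncertain. Setd8, Suv420h1 and Suv420h2 are the array's names for Kmt5a, Kmt5b and Kmt5c.

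The promoters of Hdac9, the gene with the widest difference between groups among the HDACs tested, are shown because they differ in CpG content from most others. Promoters here are the 250 bases before a transcript start in RefSeq, build GRCm38.p6, and 74 of the 89 genes had 103 of them. The median was 18 CpG dinucleotides, against 10 over the 21263 promoters of protein-coding genes, and 10 of the 103, or 9.71%, held fewer than 5, against 33.7%. Both Hdac9 promoters were among those 10. The sequences below are 5′ to 3′ with every CpG in capitals. They show the upstream Hdac9 promoter at chr12:34917096-34917345 and the internal one at chr12:34528890-34529139, both on the minus strand, with 0 and 2 CpG. Ezh2 stands for the CpG-rich majority, with 17 CpG in the 178 bases at chr6:47595031-47595208, minus strand, and Jmjd7, whose transcript also differed, has 7 in the 79 bases that separate it from its upstream neighbour Mapkbp1, chr2:120027404-120027482, plus strand.
Hdac9 upstream promoter: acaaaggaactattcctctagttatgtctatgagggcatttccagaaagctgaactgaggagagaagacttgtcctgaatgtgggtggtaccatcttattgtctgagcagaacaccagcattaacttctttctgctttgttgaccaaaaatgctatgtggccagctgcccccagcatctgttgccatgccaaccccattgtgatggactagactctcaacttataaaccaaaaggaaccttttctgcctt
Hdac9 internal promoter: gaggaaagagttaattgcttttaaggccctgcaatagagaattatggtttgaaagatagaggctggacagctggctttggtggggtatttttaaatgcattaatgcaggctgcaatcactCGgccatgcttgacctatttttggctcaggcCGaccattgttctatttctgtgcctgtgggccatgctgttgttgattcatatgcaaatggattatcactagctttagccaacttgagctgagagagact
Ezh2 promoter: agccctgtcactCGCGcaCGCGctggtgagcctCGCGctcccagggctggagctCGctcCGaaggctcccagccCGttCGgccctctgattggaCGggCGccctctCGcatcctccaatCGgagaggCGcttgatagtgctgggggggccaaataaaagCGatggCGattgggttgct
Jmjd7 promoter: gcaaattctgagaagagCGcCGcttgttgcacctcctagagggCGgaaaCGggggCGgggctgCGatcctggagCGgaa
The core of the T-box motif was searched on both strands of the full 250 bases. The letters AGGTGTGA were in 0 of the 103 promoters, against 0.997% of those of protein-coding genes. The shorter GGTGTG, which lies within it, was in 14, or 13.6%, against 15.8%. A match describes these letters only.

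Across the 84 tested genes, most differences between Eomes-positive and Eomes-negative cells were small. The median difference was 0.0001 in these genes and -0.01 over all 16412 genes tested, and the median size of a difference was 0.17 against 0.20. The centre depends on how arrays are scaled and blocked. The medians were 0.10 and 0.09 with median scaling, and 0.09 and -0.01 with the slide as a block. With limma on group alone, 0 of the 84 passed an adjusted p of 0.05, against 2.77% of all genes (1.2% higher and 1.57% lower), and 6 had an unadjusted p below 0.05, against 12.2%. The 6 were Hdac4, Hdac9, Hdac10, Jmjd7, Kdm4d and Sirt3, all higher in Eomes-positive cells, and no share by direction over all genes is given. Samples of the same sort deviated together (correlations of their deviations from the group means, 0.808 to 0.818), and in the fit that takes the sort as a block, 4 of the 84 rose while 0 fell, against 3.66% and 4.33% of all genes. These were Hdac9, Hdac10, Jmjd7 and Chd7. Slides split the samples unevenly: slide 1 held the Eomes-positive sample of sort 1 and the Eomes-negative samples of sorts 1 and 2, and slide 3 held sort 3. Within slides 1 and 3 the differences were 1.27 and 1.59 for Hdac9, 1.02 and 1.02 for Hdac10, 0.99 and 0.90 for Jmjd7, and 0.90 and 0.78 for Chd7. With the slide in place of the sort as a block, their adjusted p values were 0.145, 0.088, 0.0852 and 0.0723. Leaving out any 1 sort from the block fit, so that fewer samples entered, left 0 of the 84 called. No share over all genes is given for that fit. On group alone, 0 of all genes were called without sort 1 or without sort 2, and 41 rose and 28 fell without sort 3. The share called in either direction by the block fit on all samples, 4.76%, stood beside 7.98% of all genes. An unadjusted p below 0.05 in that fit was reached by 17 of the 84, against 26.2% of all genes. Taken as a random block, the sort gave 7 higher and 0 lower, against 6.48% and 6.89% of all genes (13.4% in all).

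The size of the differences can be bounded as well as tested. A difference of at least 2-fold was seen in 3 of the 84, Kdm4d, Hdac9 and Hdac10, all higher, against 2.97% of all genes higher and 4.67% lower (7.63% in all). On group alone, the 95% interval of the difference stayed inside 2-fold either way for 62 of the 84, against 60.5% of all genes. With the sort as a block, it stayed inside 2-fold either way for 78 of the 84, against 80.2% of all genes. The 6 with an interval reaching past 2-fold were Hdac4, Hdac9, Hdac10, Jmjd7, Kdm4d and Chd7, and only toward Eomes-positive cells. The lowest bound was -0.99, for Dnmt3l. No share by direction over all genes is given for these intervals. All 3 sorts gave the same direction for 22 genes that were higher and 22 that were lower, shares of 26.2% each beside 25.2% and 27.1% of all genes. The 2 groups did not overlap for 12 genes, 7 higher and 5 lower, against 18.2% of all genes (8.52% higher and 9.68% lower). The 7 were Hdac4, Hdac6, Hdac9, Hdac10, Sirt3, Jmjd7 and Kdm4d, and the 5 were Hdac5, Sirt7, Dnmt3l, Setdb2 and Jmjd6.

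**Figure D1:**
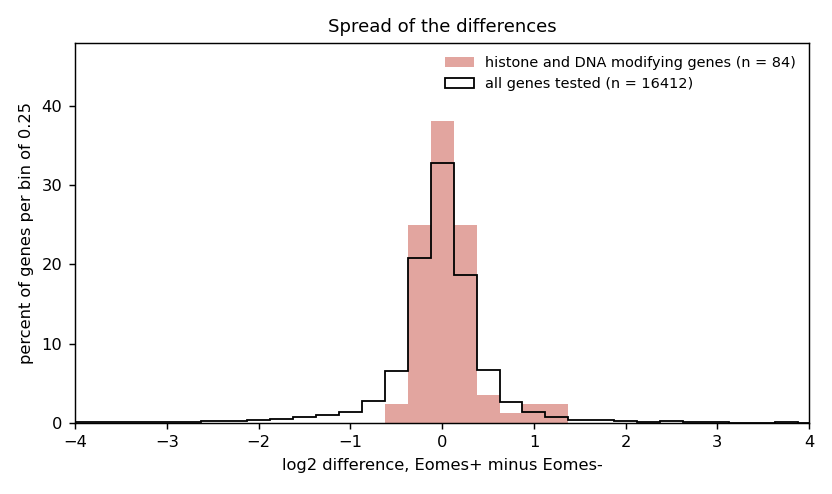
Distribution of the log2 difference (Eomes-positive minus Eomes-negative, x axis, bins of 0.25) as percent of genes (y axis) for the 84 genes tested, filled, and for all 16412 genes, outline. The 84 values run from -0.47 to 1.35, and 96 of all genes lie beyond 4 in size, outside the plotted range.

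**Figure D2:**
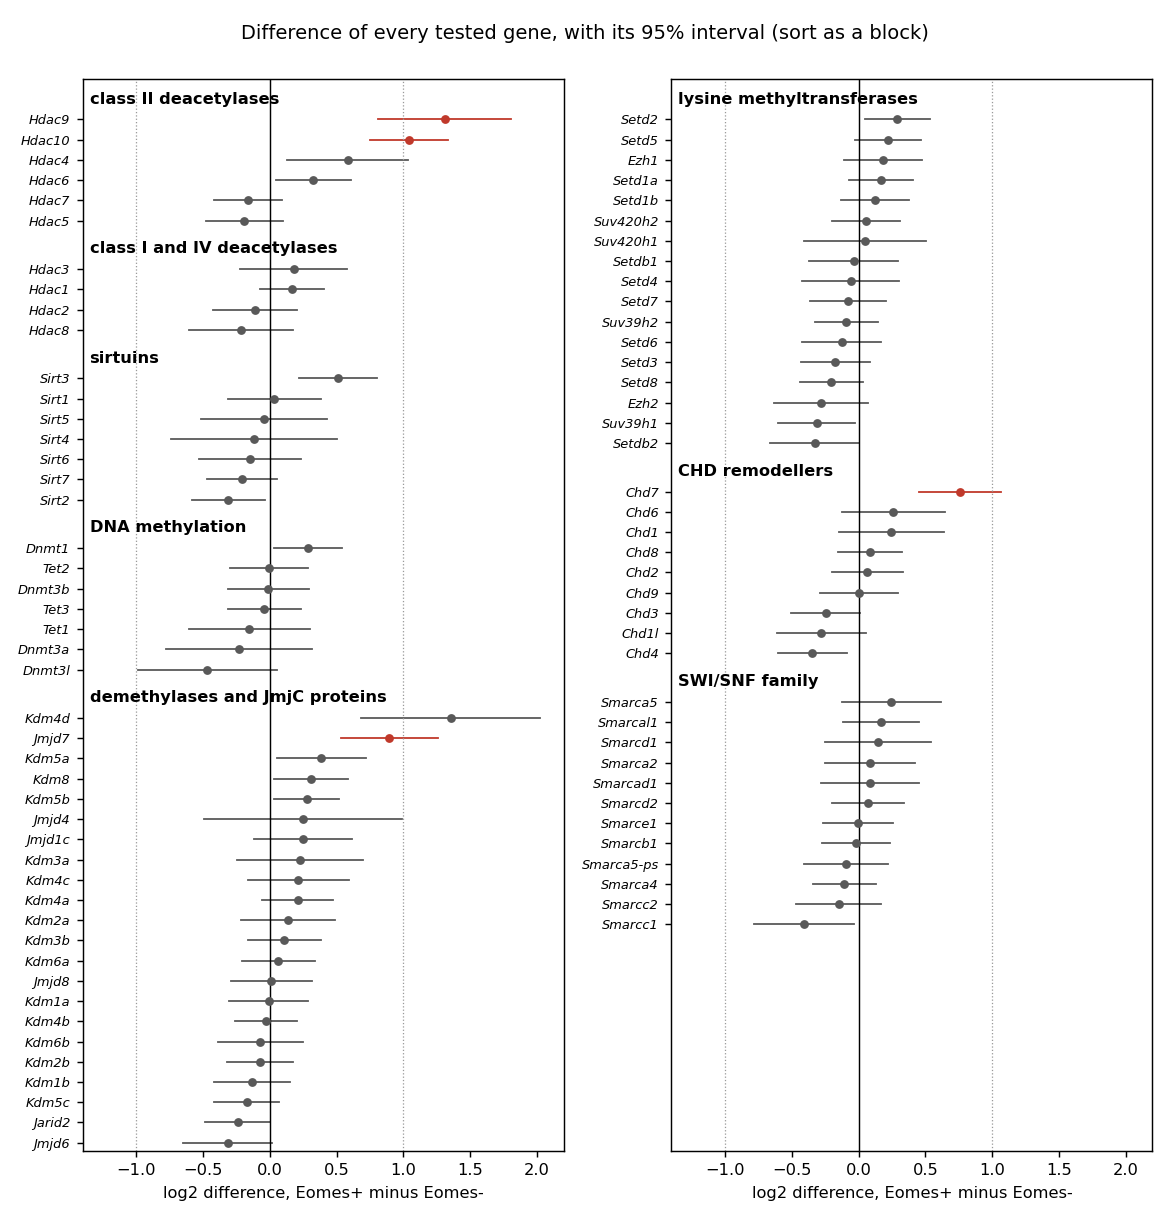
Log2 difference of each of the 84 genes (points, Eomes-positive minus Eomes-negative, x axis) with its 95% interval from limma with the sort as a block, grouped by role, with dotted lines at 2-fold. The 4 genes that passed an adjusted p of 0.05 in that fit, Hdac9, Hdac10, Jmjd7 and Chd7, are red and all lie to the right of 0.

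Class II deacetylases, the HDACs that shuttle between cytoplasm and nucleus or work mainly in the cytoplasm, had the highest median of any role, 0.45 over 6 genes. Hdac9, Hdac10, Hdac4 and Hdac6 were higher in all 3 sorts, and Hdac5 and Hdac7 were lower in all 3. Over all genes, 25.2% were higher and 27.1% lower in all 3 sorts. The fit with the sort as a block called 2 of the 6, both higher, against 3.66% of all genes higher and 4.33% lower.

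Hdac9, known as a corepressor recruited by MEF2 factors and, in regulatory T cells, as an enzyme that acts on Foxp3, had levels of 0.08, -0.14 and -0.56 in Eomes-positive cells, against -0.78, -1.61 and -2.16 in Eomes-negative cells of sorts 1, 2 and 3. The lowest Eomes-positive sample lay above the highest Eomes-negative one, so the groups did not overlap, and both groups were lowest in sort 3. The difference was 1.31, or 2.48-fold (SE 0.388, adjusted p = 0.218 in limma), and adjusted p was 0.0324 with the sort as a block. Its probe lies at chr12:35056405-35056464, minus strand (mm9). A dimmer probe at chr12:34792084-34792143, assigned to another transcript and above background on 2 arrays of each group, differed by 0.47. In sort 3 that probe was lower in Eomes-positive cells, at -6.41 against -5.92. The mean of the probes gave 0.89 with an adjusted p of 0.0788 in the block fit.

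Hdac10, known as a polyamine deacetylase, had levels of 0.13, 0.18 and 0.58 in Eomes-positive cells and of -1.08, -0.72 and -0.43 in Eomes-negative cells. Every Eomes-positive sample lay above every Eomes-negative one. The difference was 1.04, or 2.06-fold (SE 0.230, adjusted p = 0.099 in limma), with an adjusted p of 0.0182 with the sort as a block. Its other probe, chr15:88954002-88954061 beside chr15:88953840-88953899 (mm9, minus strand), differed by 1.03.

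Neighbouring genes on the same strand also differed. Mapk12, which encodes a p38 kinase and is next to Hdac10 in the RefSeq order, had levels of 0.97, 0.82 and 1.48 in Eomes-positive cells, against -3.72, -3.70 and -3.26 in Eomes-negative cells, a rise of 4.65 (SE 0.238, adjusted p = 0.00174). Mapk11, another p38 kinase one gene further on, rose by 1.15 (SE 0.194, adjusted p = 0.0445). On the other side, Tubgcp6 differed by 0.66 (adjusted p = 0.462), Selenoo by 0.14 and Trabd by 0.17, and beyond Mapk11 Plxnb2 differed by 0.49, with its 3 sorts pointing both ways. The run of genes with a call was thus Mapk11, Mapk12 and, with the sort as a block, Hdac10.

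**Figure D3:**
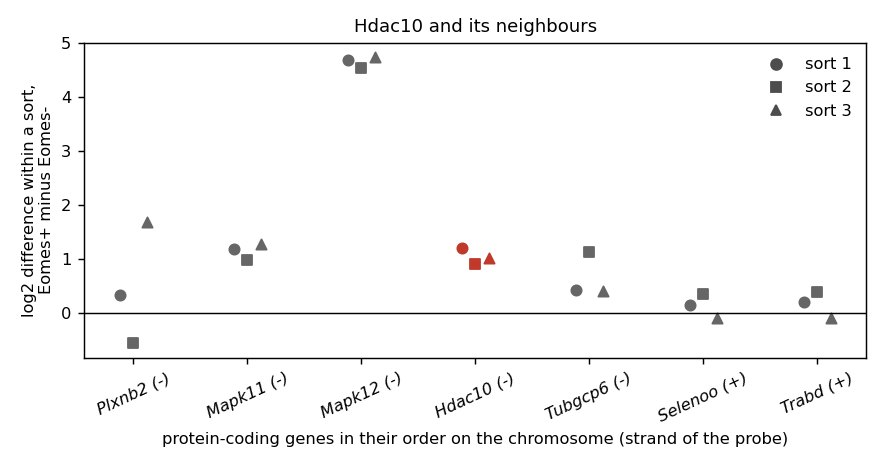
Log2 difference within each sort (y axis, Eomes-positive minus Eomes-negative) for Hdac10, red, and its protein-coding neighbours in chromosome order (x axis, probe strand in brackets). Mapk12 stands at 4.53 to 4.74, Mapk11 at 0.99 to 1.27 and Hdac10 at 0.90 to 1.21.

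Hdac4, a signal-regulated corepressor, had levels of 1.02, 1.15 and 0.98 in Eomes-positive cells, against 0.70, 0.17 and 0.54 in Eomes-negative cells. The groups did not overlap, and the difference of 0.58 (SE 0.182) had an adjusted p of 0.244, and of 0.127 with the block. Hdac6, the tubulin deacetylase, differed by 0.32 (95% interval 0.04 to 0.60 with the sort as a block). Hdac5, a related corepressor, differed by -0.19. Hdac7, a repressor in thymocytes that T cell receptor signals release, differed by -0.17.

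**Figure D4:**
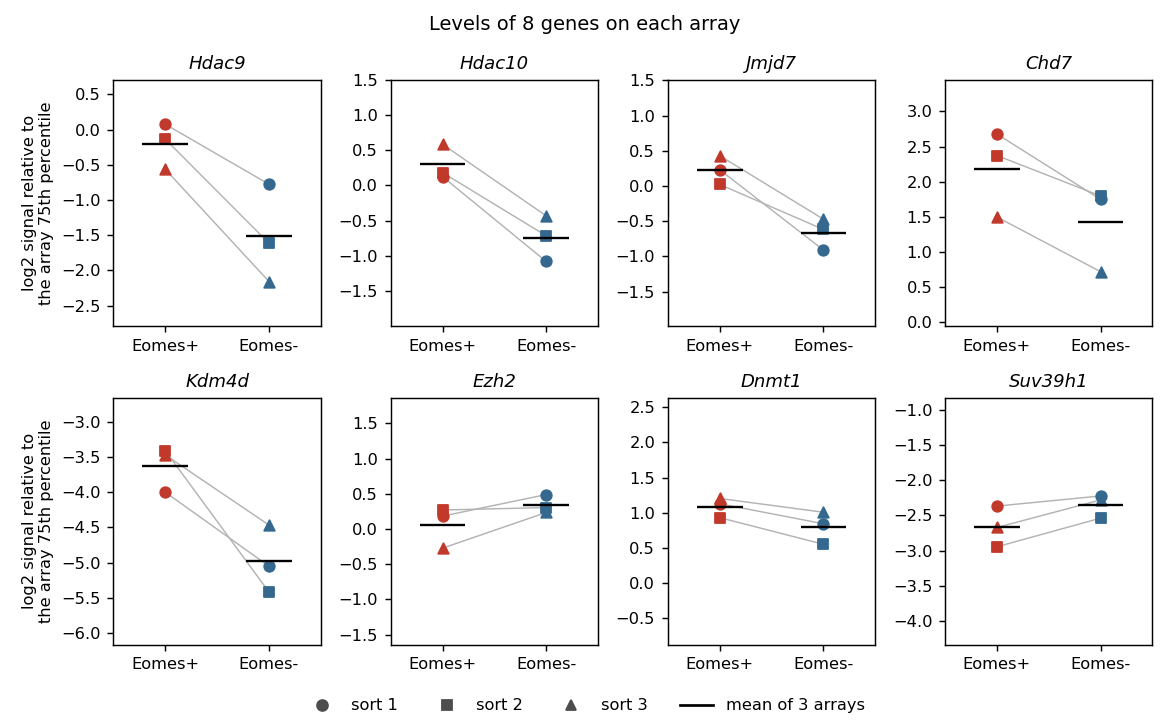
Levels (y axis, log2 signal relative to the array's 75th percentile) of 8 genes on each array, Eomes-positive in red on the left of each panel and Eomes-negative in blue on the right, with lines joining samples of a sort, markers for the sort and a bar at the mean of 3 arrays; every panel spans the same range. Hdac9, Hdac10, Jmjd7 and Kdm4d do not overlap between groups, Chd7 does but each of its 3 lines falls toward Eomes-negative cells, and the last 3 panels differ by at most 0.31 in size.

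Class I deacetylases are the nuclear enzymes of the large corepressor complexes. None of the 4 tested, Hdac1, Hdac2, Hdac3 and Hdac8, passed either fit, and their differences ran from -0.22 to 0.18. Of all genes, 2.77% passed on group alone and 7.98% with the block. Hdac1, a subunit of the NuRD, Sin3 and CoREST complexes, had levels of 4.47, 4.29 and 4.44 in Eomes-positive cells, against 4.34, 4.14 and 4.22 in Eomes-negative cells. It was a little higher in each sort, by 0.17 (SE 0.137), but the groups overlapped, and the 95% interval with the sort as a block was -0.07 to 0.41.

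Sirtuins, deacylases that consume NAD, included 1 gene near the threshold. Sirt3, the chief deacetylase of mitochondria, had levels of 1.34, 1.56 and 1.34 in Eomes-positive cells, against 1.00, 1.04 and 0.69 in Eomes-negative cells. The groups did not overlap. The difference of 0.51 (SE 0.163) had an adjusted p of 0.261, and of 0.0741 with the sort as a block. Sirt2, largely cytoplasmic, differed by -0.31 (adjusted p = 0.736, and 0.155 with the block). The other 5 lay between -0.21 and 0.03.

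None of the 7 genes of DNA methylation passed either fit, where 2.77% of all genes passed on group alone and 7.98% with the block. All 7 intervals stayed within 2-fold with the sort as a block, beside 80.2% of all genes. Dnmt1, which copies methylation onto new DNA strands, had levels of 1.13, 0.93 and 1.20 in Eomes-positive cells, against 0.84, 0.55 and 1.01 in Eomes-negative cells. It was higher in each sort, by 0.29 (SE 0.176, adjusted p = 0.693), yet the groups overlapped. Dnmt3a, which sets new methylation, had levels of 0.06, -0.04 and 0.45 in Eomes-positive cells and of 0.80, -0.08 and 0.43 in Eomes-negative cells. Its difference of -0.23 rested on sort 1, and without that sort it was 0.03. Tet2, an oxidase of methylcytosine, had levels of -0.24, -0.64 and -0.10 in Eomes-positive cells and of -0.06, -0.72 and -0.19 in Eomes-negative cells. Both groups were lowest in sort 2, and the difference was -0.01 (95% interval -0.29 to 0.28 with the sort as a block), with the sign turning under median scaling. Dnmt3l, a cofactor of the Dnmt3 enzymes, was above background on 2 arrays of each group. Over all 3 arrays of each it differed by -0.47 (adjusted p = 0.644), with -0.18 under normexp background correction and -0.20 without the Eomes-positive sample of sort 3.

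Of 17 lysine methyltransferases, 0 passed either fit, beside 2.77% of all genes on group alone and 7.98% with the block. In all 3 sorts 5 were higher and 7 lower, beside 25.2% and 27.1% of all genes. All 17 intervals stayed within 2-fold with the sort as a block, beside 80.2% of all genes. Ezh2, the catalytic subunit of Polycomb repressive complex, had levels of 0.18, 0.27 and -0.27 in Eomes-positive cells, against 0.49, 0.30 and 0.23 in Eomes-negative cells. It was lower in each sort, with differences of -0.31, -0.03 and -0.51, and the groups overlapped. The difference was -0.28 (SE 0.195, adjusted p = 0.753). Its paralog Ezh1, common in resting cells, differed by 0.18. Suv39h1, which lays down the repressive methyl mark of heterochromatin, had levels of -2.37, -2.95 and -2.67 in Eomes-positive cells, against -2.22, -2.54 and -2.28 in Eomes-negative cells, a difference of -0.31 (SE 0.200, adjusted p = 0.71). Setdb2 differed by -0.33 (adjusted p = 0.556) and Setd2, the enzyme of transcribed gene bodies, by 0.29 (adjusted p = 0.835). Beside these, the 19 tested proliferation genes had a median difference of -0.65, and 0 of them passed on group alone. With the sort as a block 4 fell, against 4.33% of all genes, Top2a by 1.15, Ccnb2 by 1.83, Birc5 by 1.52 and Plk1 by 1.09, while their list's summed level was 6.17 to 6.31 in Eomes-positive and 6.07 to 6.35 in Eomes-negative cells. Genes of the list without a call in either fit went both ways. Mcm2, Mcm3, Mcm4, Mcm5, Mcm6 and Mcm7 were higher, by 0.12 (Mcm7) to 0.55 (Mcm2), and Mki67 differed by -1.31. Whether cycling cells bear on Ezh2 or Suv39h1 was not tested.

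Demethylases and JmjC proteins numbered 22 tested. The block fit called 1 higher and 0 lower, against 3.66% and 4.33% of all genes. Jmjd7, a JmjC protein known as a lysyl hydroxylase, had levels of 0.23, 0.02 and 0.43 in Eomes-positive cells, against -0.91, -0.62 and -0.47 in Eomes-negative cells. The groups did not overlap, and the difference was 0.89, or 1.86-fold (SE 0.188, adjusted p = 0.0869 in limma, and 0.0367 with the sort as a block). Its probe is at chr2:119857970-119858029, plus strand (mm9). The genes on either side, Mapkbp1 and Pla2g4b, differed by 0.05 and -0.17 (adjusted p = 0.993 and 0.945).

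Kdm4d, a demethylase of the heterochromatin mark, had the widest difference of the 84, at low signal. Its levels were -4.00, -3.41 and -3.47 in Eomes-positive cells, against -5.05, -5.42 and -4.47 in Eomes-negative cells, and it was above background on all 3 Eomes-positive arrays and on 2 Eomes-negative ones. The groups did not overlap. The difference was 1.35 (SE 0.303, adjusted p = 0.101), missed the threshold with the sort as a block at 0.0552, and shrank to 0.50 under normexp background correction. Of its 2 nearest neighbours, Endod1 differed by 0.83 (adjusted p = 0.261, and 0.0212 with the block) and Cwc15 by 0.09.

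Other demethylases differed less. Kdm6b, which removes the Polycomb methyl mark and is induced by activation, had levels of 0.32, 0.08 and 0.66 in Eomes-positive cells and of 0.61, 0.05 and 0.61 in Eomes-negative cells. Both groups were lowest in sort 2, and the difference of -0.07 (SE 0.240) changed sign with median scaling. Its relative Kdm6a differed by 0.06. Kdm5a and Kdm5b, which demethylate the mark of active promoters, differed by 0.38 and 0.28, each higher in all 3 sorts, with adjusted p of 0.151 and 0.155 in the block fit. Kdm1a, the amine oxidase LSD1, differed by -0.01 (95% interval -0.31 to 0.29 with the sort as a block).

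With the sort as a block, 3.66% of all genes rose, and of 9 tested CHD remodellers 1 did, Chd7. It is best known in humans from the developmental syndrome that its mutation causes, and had levels of 2.68, 2.37 and 1.50 in Eomes-positive cells, against 1.75, 1.80 and 0.72 in Eomes-negative cells. The groups overlapped, because both samples of sort 3 were low, but each sort gave a higher Eomes-positive sample, by 0.93, 0.57 and 0.78. The difference of 0.76 (SE 0.431) had an adjusted p of 0.644 on group alone and of 0.0361 with the block, where the SE was 0.111. On group alone it was 0.41 without the Eomes-negative sample of sort 3 and 1.10 without the Eomes-positive sample of sort 3, and the block fit without any 1 sort gave 0.68 to 0.85. Its probe is at chr4:8793852-8793911, plus strand (mm9). Chd3 and Chd4, the ATPases of NuRD, differed by -0.24 and -0.34, lower in all 3 sorts (adjusted p = 0.207 and 0.118 with the block).

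SWI/SNF family genes showed little difference. None of 12 passed either fit, beside 2.77% of all genes on group alone and 7.98% with the block. All 12 intervals stayed within 2-fold with the sort as a block, beside 80.2% of all genes. Smarca4, the ATPase BRG1, had levels of 2.87, 2.64 and 3.09 in Eomes-positive cells and of 2.97, 2.72 and 3.23 in Eomes-negative cells. Each sort had a slightly lower Eomes-positive sample, the difference was -0.11 (SE 0.202), and the groups overlapped. Smarcc1, a core scaffold subunit, had levels of 3.71, 3.46 and 4.65 in Eomes-positive cells, against 4.03, 3.66 and 5.35 in Eomes-negative cells. Both samples of sort 3 were high, and the difference of -0.41 (SE 0.536, adjusted p = 0.944) turned to 0.10 without the Eomes-negative sample of sort 3. Smarcal1, a DNA-annealing helicase, differed by 0.17.

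Genes that work with these enzymes were read from lists of acetyltransferases, further methyltransferases, Polycomb partners, HDAC corepressors, readers of methylated DNA and SWI/SNF partners. Of 91 tested, 0 passed on group alone, with 10 below an unadjusted p of 0.05, against 2.77% and 12.2% of all genes. The block fit called 3 higher and 3 lower, 6.59% in all against 7.98% of all genes, and their median difference was 0.02. Of 20 Polycomb partners, Bmi1, a core subunit of the other Polycomb complex, rose by 0.68 and Phf1, which helps recruit Ezh2, by 0.59 (adjusted p = 0.0303 and 0.041). Of 17 corepressors, Mta3 of NuRD fell by 0.77 and Rcor2 of CoREST fell by 0.74 (adjusted p = 0.048 and 0.0475). Of 13 readers of methylated DNA, Mbd4, a repair glycosylase, rose by 0.68 and Uhrf1, which brings Dnmt1 to new DNA, fell by 0.61 (adjusted p = 0.0429 and 0.0478). None of the 12 acetyltransferases, 15 further methyltransferases or 14 SWI/SNF partners passed.

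Levels of these genes also varied between sorts. For 67 of the 84, the range of the 3 sort means was larger than the difference between groups, a share of 79.8% beside 77.7% of all genes. A range over 3 means tends to exceed a difference between group means, so that comparison does not rank sort against group. For 13 of the 84 the range was at least 1, against 21.0% of all genes. Sort 3, with the smaller RNA input, the youngest mice and a slide of its own, stood apart from the mean of sorts 1 and 2 by -1.92 for Chd2, -1.19 for Kdm5a, -1.12 for Tet1 and -1.05 for Kdm6a, and by 1.67 for Smarcd1, 1.29 for Smarcc1, 1.11 for Sirt6 and 1.05 for Tet3. Input, age and slide cannot be told apart here.

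That shift depended on which probe of a gene was read. For 26 genes with a measured pair of probes, the upstream and the downstream probe were compared. At the upstream probe Chd2 shifted by -1.92 in sort 3 and at the downstream one by 0.34, Setd1b by -2.11 and 0.85, and Smarcc1 by -0.29 and 1.29. Of 7 pairs more than 20000 bases apart, 6 had the upstream probe lower in sort 3, with a median gap of -0.87, and over all genes 251 of 336 such pairs did, with a median of -0.40. Of 12 pairs at most 2000 bases apart, 4 did, or 33.3%, beside 55.3% of such pairs over all genes. The gap in the sort 3 shift passed 1 in size in 4 of the 26, beside 391 of 2767 pairs over all genes. The gap between the same probes in the difference between groups passed 1 in 0 of the 26, beside 19 of the 2767. Of 27 genes with several probes above background on all 6 arrays, 7 had probes of opposite sign in the group difference, with a median spread of 0.11 and a largest of 0.72, in Chd2.

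**Figure D5:**
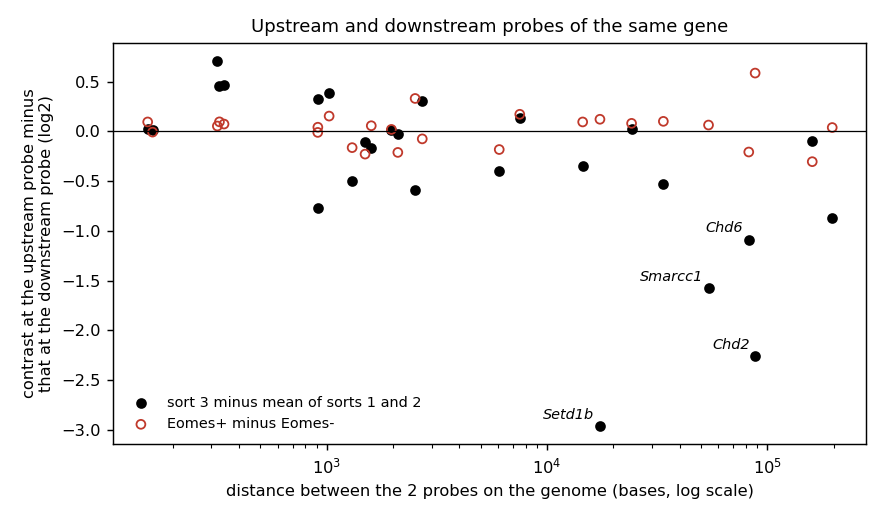
Contrast at the upstream probe minus that at the downstream probe (y axis, log2) against the distance between them (x axis, bases, log scale) for 26 genes, with sort 3 minus the mean of sorts 1 and 2 in black and Eomes-positive minus Eomes-negative as red circles. Setd1b, Chd2, Smarcc1 and Chd6 lie at -2.96, -2.26, -1.58 and -1.09 for the sort, while the red circles lie between -0.30 and 0.59.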

How the data were processed

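Total RNA of 6 sorted samples was hybridised to one-colour Agilent arrays, 3 per group. Per the file headers, the deposited scanner files hold linear intensities from which Agilent Feature Extraction 10.7.3.1, also named in the submitters' processing notes, had subtracted background; arrays were not normalized to each other. Other deposited columns are flags of 0 or 1 that mark spots as detected, saturated or outlying, per the file headers. The authors' table of values holds the same intensities scaled to 75th percentiles of 1497 to 1506.

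Log2 processed intensity was averaged over the spots of a probe, without outlier spots, and the array's 75th percentile was subtracted. Detection of a probe on an array needed 50% or more of its spots to carry the flag for being well above background, and a gene was tested where its brightest probe was detected on at least 3 of 6 arrays. Names came from RefSeq accessions for 27508 of 39429 probes, and 124 of the 145 probes of the histone and DNA modifying genes matched. Those genes kept the name in the scanner file. Probe positions are mm9, from the files. Between 47.7% and 56.6% of probes were detected per array.

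The comparison used limma 3.58.1 in R 4.3.3, with Benjamini-Hochberg adjustment over all 16412 genes and a threshold of 0.05. With 3 arrays per group the smallest two-sided p of an exact permutation test is 0.1. The fit on group alone was the primary one, and the sort number as a block was an alternative. The numbers pair the samples: the sorts were independent per the labels, and deviations from the group means correlated at 0.808 to 0.818 for samples of the same number and at -0.569 to -0.26 otherwise. The fit on group alone was tested on simulated data with independent errors and no effect of the sort. That test does not cover the block fit. Other alternatives were the sort as a random block (statmod 1.5.0, correlation 0.742), the slide, background correction, scaling, filters on dim probes, the mean of probes, the deposited table and leaving out samples.

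Named were genes passing either fit, those with at least a 2-fold difference in 1 direction in all 3 sorts and detected on all 3 arrays of the higher group, up to 2 of each role with no such gene, and Ezh2, Dnmt1, Dnmt3a, Tet2, Hdac1, Kdm6b, Smarca4 and Suv39h1. Up to 4 called genes of each partner list were named. Other genes describe the lists, and neighbouring genes and pairs of probes were chosen after their values were seen. The genes and lists were chosen with earlier results of these data known. Figures were drawn with matplotlib 3.10.9.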

Additional observations from a re-analysis of the deposited data

How the results depend on the processing

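With the sort as a replicate block, genes called numbered 600 higher and 710 lower, against 197 and 257 on group alone. With the sort as a random block they numbered 1063 and 1131. Without a filter on dim probes 91 were higher and 154 lower, and 166 were lower among genes measured on all 6 arrays. Leaving out samples gave 0 to 101 higher and 0 to 180 lower. Of the histone and DNA modifying genes, 4 were called higher with the replicate block and 7 with the random block (Hdac4, Kdm4d and Sirt3 in addition), and 0 lower in either, while each setting without the sort as a block called 0. Of partner genes, 3 were higher and 3 lower with the replicate block, and 5 and 7 with the random block. Several combinations with the block were chosen after seeing the data, and no share over all genes is given for them. With the block, 2 of the histone and DNA modifying genes were higher without a filter on dim probes. Trend and robust variances gave 7 higher and 3 lower (Chd4, Sirt2 and Smarcc1). Leaving out any 1 sort gave 0 higher, with adjusted p between 0.0616 and 0.151 for Hdac9, Hdac10, Jmjd7, Chd7 and Kdm4d; fewer samples enter that fit. Over 9 other settings with the block, Hdac10 kept its call in 9 and Hdac9, Jmjd7 and Chd7 in 8 each. Eomes lost its call in 6 of 9 fits that left out samples, with adjusted p up to 0.251.

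Signs turned for Dnmt3a, Kdm6b, Smarca4, Smarcc1 and Tet2, none of which passed either fit, and the cause was not tested. With the slide as a block Kdm6b was 0.015 and Tet2 0.121, with median scaling, which moved the median of all genes from -0.01 to 0.09, they were 0.026 and 0.093, and with the mean of all probes Tet2 was 0.053. The Eomes-positive sample of sort 2 was alone on its slide, so slide and sort are partly confounded. Over all fits that left out samples, Dnmt3a ran from -0.461 to 0.03, Kdm6b from -0.257 to 0.065, Smarca4 from -0.234 to 0.019, Smarcc1 from -0.762 to 0.096 and Tet2 from -0.203 to 0.15. Dim probes, such as those of Kdm4d and Dnmt3l, are least precise.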
